A study of Homo sapiens with 13 samples.

Results

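Translation initiation in animal cells is carried out by the cap-binding complex eIF4F and by a second set of eukaryotic initiation factors that act on the ribosome itself. The genes described here are the 31 genes of that second set, chosen by name and function and not by their values: the eIF1 group (EIF1, EIF1B, EIF1AX), the subunits of eIF2 (EIF2S1, EIF2S2, EIF2S3), of eIF2B (EIF2B1 to EIF2B5) and of eIF3 (EIF3A to EIF3M), the eIF5 group (EIF5, EIF5B, EIF5A, EIF5A2), and EIF2A, EIF2D and EIF6. They are 31 of the 24875 gene symbols in the Silvestrol table and of the 13121 in the INK128 table, and every one of the 31 has an entry in both. MDA-MB-231 is a human triple-negative breast cancer line, grown here as 1 line without any genetic change described in the labels. Silvestrol inhibits the RNA helicase eIF4A, the part of eIF4F that unwinds mRNA, and INK128 inhibits the kinase mTOR, which controls the cap-binding protein eIF4E. Cells received DMSO or 25 nM Silvestrol for 1 h or for 2 h, or were left untreated. In a separate experiment they received DMSO or 200 nM INK128 for 2 h. Ribosome footprints (RFs), the mRNA fragments that ribosomes protect from RNase, and RNA were sequenced, and translation efficiency (TE) is the ratio of the RF value to the RNA value of a gene.

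Initiation begins when eIF2, bound to GTP, brings the initiator tRNA to the small ribosomal subunit. EIF1, EIF1AX and EIF5 join it there, and the large complex eIF3 holds the assembly together and docks it on mRNA through eIF4F. EIF5 triggers GTP hydrolysis by eIF2 once the start codon is found, eIF2B recharges eIF2 with GTP, and EIF5B promotes joining of the large subunit. eIF2B is a target of the integrated stress response. Many mRNAs of the translation machinery begin with a run of pyrimidines, called a 5′ terminal oligopyrimidine (TOP) motif, that makes their translation sensitive to mTOR.

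The Silvestrol experiment held 9 libraries, 7 of RFs and 2 of mRNA, with 2652423 to 50315607 counted reads. Only the 2 h RF treatments were replicated, in cultures of passage 3 and passage 4 (n = 2 for DMSO and n = 2 for Silvestrol), and the passage 4 libraries were the shallowest, with 6446356 reads for DMSO and 2652423 for Silvestrol. mRNA, the 1 h time point and the whole INK128 experiment (4 libraries) have 1 library per group, so their values carry no replicate error and no test. The labels disagree for a pair of libraries: the Silvestrol RF library of passage 3 is a 2 h sample by title and a 1 h sample by another field, and the control mRNA library is DMSO by title and untreated by another field. Titles were followed. The control mRNA values carry no treatment name in the table, so every mRNA or TE change with Silvestrol rests on that assignment. In the 2 h DMSO RF libraries the mesenchymal markers VIM, CD44, AXL and CAV1 were present, the lowest being AXL in passage 3 at 109 RPKM (read density per kilobase, scaled to library size), ESR1 and PGR were at 0, CDH1 was at most 0.0455 RPKM and EPCAM 3.24 to 9.69 RPKM.

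The authors left out positions with reads that were not unique, and the counted length of some members was short. In the passage 3 DMSO library at 2 h, reads over RPKM gave the length that was counted, scaled so that the median gene matched its annotated coding length. That length was 7.75% of the coding sequence for EIF3C, 9.73% for EIF1, 15.1% for EIF3F, 18.5% for EIF2S2, 20.5% for EIF5A, 24.4% for EIF2S3, 31.9% for EIF3E and 40.5% for EIF3L. It was over 50% for the 22 other genes with RF reads in that library. EIF5A, the hypusine-containing factor that helps peptide bond formation, had 2 to 9 RF reads in each of the 7 RF libraries, yet 472 FPKM (the same density for fragments) of RFs in the DMSO library of the INK128 experiment, the highest of the 31 genes. EIF1AX, the eIF1A gene of the X chromosome, had 5 RF reads in the passage 4 DMSO library and 0 in the other 6 RF libraries, and is the only member that did not pass the filter for the Silvestrol tests. The filter kept 10588 genes and 30 members. Of the 30, EIF3C (19 and 25 RF reads in DMSO and Silvestrol at passage 3), EIF2S2 (81 and 20) and EIF5A (3 and 5) rest on few reads.

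Transcription start sites bear on the response to mTOR inhibition, so the windows around them are shown first. RefSeq start sites (GRCh38.p14) were at hand for 25 members. EIF2S2, EIF3A, EIF3E, EIF3G, EIF3H and EIF3L had no entry. Each window runs 5′ to 3′ on the strand of the gene from 10 bases before to 20 bases from the annotated start onward, and capitals mark a C followed by at least 4 more C or T. In 7 members such a run covers the start itself, with C as the first transcribed base:
EIF2A (chr3:150546777-150546806, plus strand): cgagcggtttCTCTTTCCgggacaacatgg
EIF2D (chr1:206612446-206612475, minus strand): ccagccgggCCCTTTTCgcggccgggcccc
EIF2S3 (chrX:24054946-24054975, plus strand): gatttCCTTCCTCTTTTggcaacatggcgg
EIF3D (chr22:36529147-36529176, minus strand): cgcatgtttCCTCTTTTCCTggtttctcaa
EIF3F (chr11:7987327-7987356, plus strand): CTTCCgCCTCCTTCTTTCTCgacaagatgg
EIF3K (chr19:38619178-38619207, plus strand): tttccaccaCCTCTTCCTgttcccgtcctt
EIF3M (chr11:32583821-32583850, plus strand): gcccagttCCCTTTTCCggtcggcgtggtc
Windows of 4 other members described with Silvestrol are shown beside them, EIF5 at the more downstream of its 2 annotated starts. These 4 have no run at the start, whereas EIF2A, which passed the Silvestrol test on RFs, has one and is in the set above:
EIF3I (chr1:32222397-32222426, plus strand): ttccggtcttactcacgttgcggCCTTCCT
EIF5 (chr14:103334878-103334907, plus strand): ggcaCCCCTCggccgtgtgtcgCTTCCCgg
EIF5B (chr2:99337379-99337408, plus strand): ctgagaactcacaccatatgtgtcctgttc
EIF2S1 (chr14:67360318-67360347, plus strand): gaggttccgcatgcgcggtggagtgagcga
A run anywhere in the 30 bases was present in 16 of the 25 members (64%) and in 43.4% of 27305 genes, and on the opposite strand in 7 members (28%) and 41.4% of genes. A run that covers the start was present in 7 of 25 members (28%) and in 5.14% of genes. That last criterion was chosen after the windows were seen, and a match is a description of letters only.

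How far footprint levels differed between subunits depended on the complex. The 5 eIF2B subunits spanned a narrow range: in each of the 7 RF libraries EIF2B4 was the lowest (48.1 to 68.0 RPKM) and EIF2B2 the highest (126 to 156 RPKM), a 2.09-fold to 2.64-fold range. Of the 9 eIF3 subunits with over 50% of their coding length counted, EIF3J, a loosely bound subunit that helps the ribosome release and load mRNA, was the lowest in every RF library (26.2 to 47.9 RPKM). EIF3I, a beta-propeller subunit, was the highest in 6 of the 7, with 519 to 882 RPKM over all 7 libraries, and EIF3M in the passage 4 DMSO library (563 RPKM). In the INK128 experiment, which gives FPKM and no length filter, EIF3J was not low, with 139 FPKM in DMSO against 73.9 FPKM for EIF3A and 101 FPKM for EIF3B. EIF6, which keeps free large subunits from joining, had the highest RF level of all members at 2 h in the passage 3 DMSO library (1600.3 RPKM), beside EIF1 (1539 RPKM). In the passage 3 DMSO libraries RFs exceeded mRNA (both in RPKM) most in EIF2S1, the alpha subunit of eIF2 that stress kinases phosphorylate, with a ratio of 14.7.

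**Figure D1:**
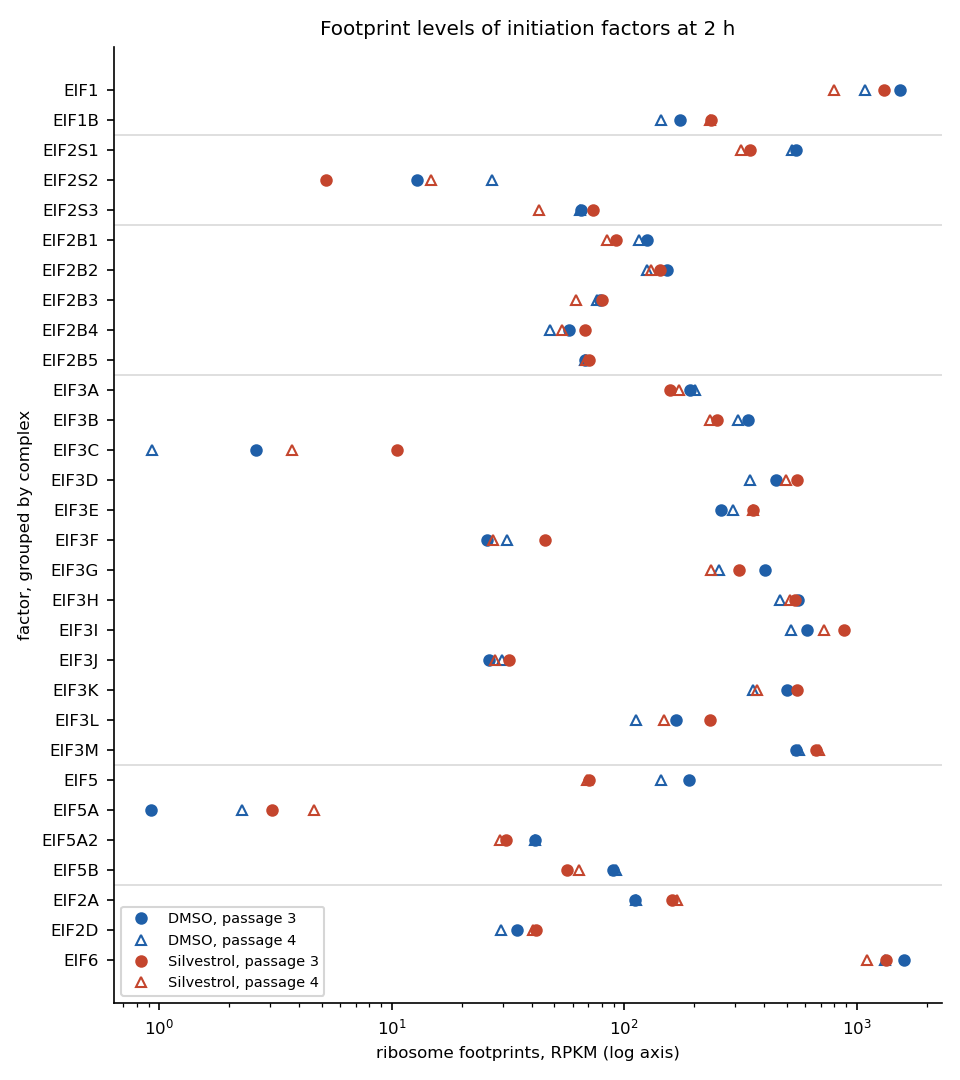
RF level (RPKM, log axis) of 30 members in the 4 libraries at 2 h, grouped by complex. Blue is DMSO and red is Silvestrol, filled circles are passage 3 and open triangles are passage 4. In EIF5 both Silvestrol libraries sit left of both DMSO libraries, and in EIF2A and EIF3I both sit right of them.

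Control libraries set the scale for the changes that follow. Over the 27 members with at least 100 RF reads in the passage 3 DMSO library, the log2 ratio of RF RPKM between untreated cells and that library ranged from -0.33 (EIF5A2) to 0.28 (EIF3J), with an SD of 0.14. Between the passage 4 and the passage 3 DMSO libraries it ranged from -0.66 (EIF3G) to 0.28 (EIF3F), with an SD of 0.24. Between the 1 h and the 2 h DMSO libraries of passage 3 it ranged from -0.36 (EIF1B) to 0.51 (EIF3F), with an SD of 0.17, and was 0.21 for EIF5. Of these 3 control comparisons, the members spread most between the passages by their SD, and the highest single value lay between the DMSO times.

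With Silvestrol at 2 h the footprints of EIF5 fell and those of EIF2A and EIF3I rose, and these 3 were the members that passed the test on RF counts. EIF5 is the GTPase-activating protein of eIF2 (gene at chr14:103799881-103811362, plus strand, GRCh37). Its RFs were 191 RPKM and 144 RPKM in DMSO, and 70.4 RPKM and 69.4 RPKM in Silvestrol, at passage 3 and passage 4. Both Silvestrol values lay below both DMSO values, at 0.369 and 0.483 of the DMSO value of the same passage, on 5456 and 1178 reads in DMSO and 1191 and 286 in Silvestrol. The fitted log2 change in EIF5 RFs was -0.87 ± 0.15 (SE, n = 2 against 2; adjusted p = 0.0320, edgeR quasi-likelihood test over all genes). EIF2A, a protein that can bring initiator tRNA to the ribosome without eIF2 (chr3:150264465-150303803, plus strand), had 111 RPKM and 112 RPKM of RFs in DMSO and 160.3 RPKM and 168 RPKM in Silvestrol. The DMSO values were nearly equal and both Silvestrol values lay above them, with a fitted log2 change in RFs of 0.67 ± 0.12 (adjusted p = 0.0354, edgeR). EIF3I (chr1:32686678-32710998, plus strand) had 608 RPKM and 519 RPKM in DMSO and 882 RPKM and 726 RPKM in Silvestrol, again without overlap, with a fitted log2 change in RFs of 0.65 ± 0.13 (adjusted p = 0.0412, edgeR). With counted length as an offset EIF3I no longer passed, at 0.66 ± 0.18 (adjusted p = 0.0729, edgeR). In bulk libraries a change in RFs of a gene cannot be told apart into ribosomes per mRNA and mRNA amount without the mRNA values. Those have 1 library per treatment. Overlap of DMSO and Silvestrol values is described for members here and below. The share of all genes without overlap was not computed, so a lack of overlap is a description only.

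Counted over the 30 members tested, 1 was lower and 2 were higher with Silvestrol, beside 803 lower (7.58%) and 226 higher (2.13%) of 10588 genes. The passages pair the samples. The fit with passage as a block called 5 members lower and 11 higher, beside 28.0% of all genes lower and 24.6% higher. Its p-values rest mostly on a spread shared over all genes and not on that of the single gene. The 5 lower ones were EIF5, EIF2S1, EIF2B1, EIF3B and EIF5B. The 11 higher ones were EIF1B, EIF2A, EIF2B4, EIF2D and the 7 eIF3 subunits EIF3C, EIF3D, EIF3E, EIF3I, EIF3K, EIF3L and EIF3M. DESeq2 called EIF5 lower, beside 9.46% of all genes, and EIF1B, EIF2A, EIF3I and EIF3L higher, beside 5.21%. Leaving out 1 library ended the 3 calls of the fit without the block, EIF5 without the passage 4 DMSO library excepted. Without the passage 3 or the passage 4 Silvestrol library no gene passed in edgeR (1610 and 1934 genes had an unadjusted p under 0.05), and EIF5 had an adjusted p of 0.236 and 0.152 there. Without the passage 3 DMSO library the adjusted p was 0.0528 for EIF5, 0.0604 for EIF2A and 0.0544 for EIF3I, and without the passage 4 DMSO library it was 0.0160, 0.0542 and 0.0704 in edgeR. The fitted log2 changes kept their sign throughout, at -0.97 to -0.75 for EIF5, 0.66 to 0.68 for EIF2A and 0.56 to 0.71 for EIF3I. The edgeR scaling puts the median gene near 0, whereas the median log2 change of RPKM over all genes was -0.17 at passage 3 and -0.15 at passage 4, so RPKM changes of members are read against those medians.

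**Figure D2:**
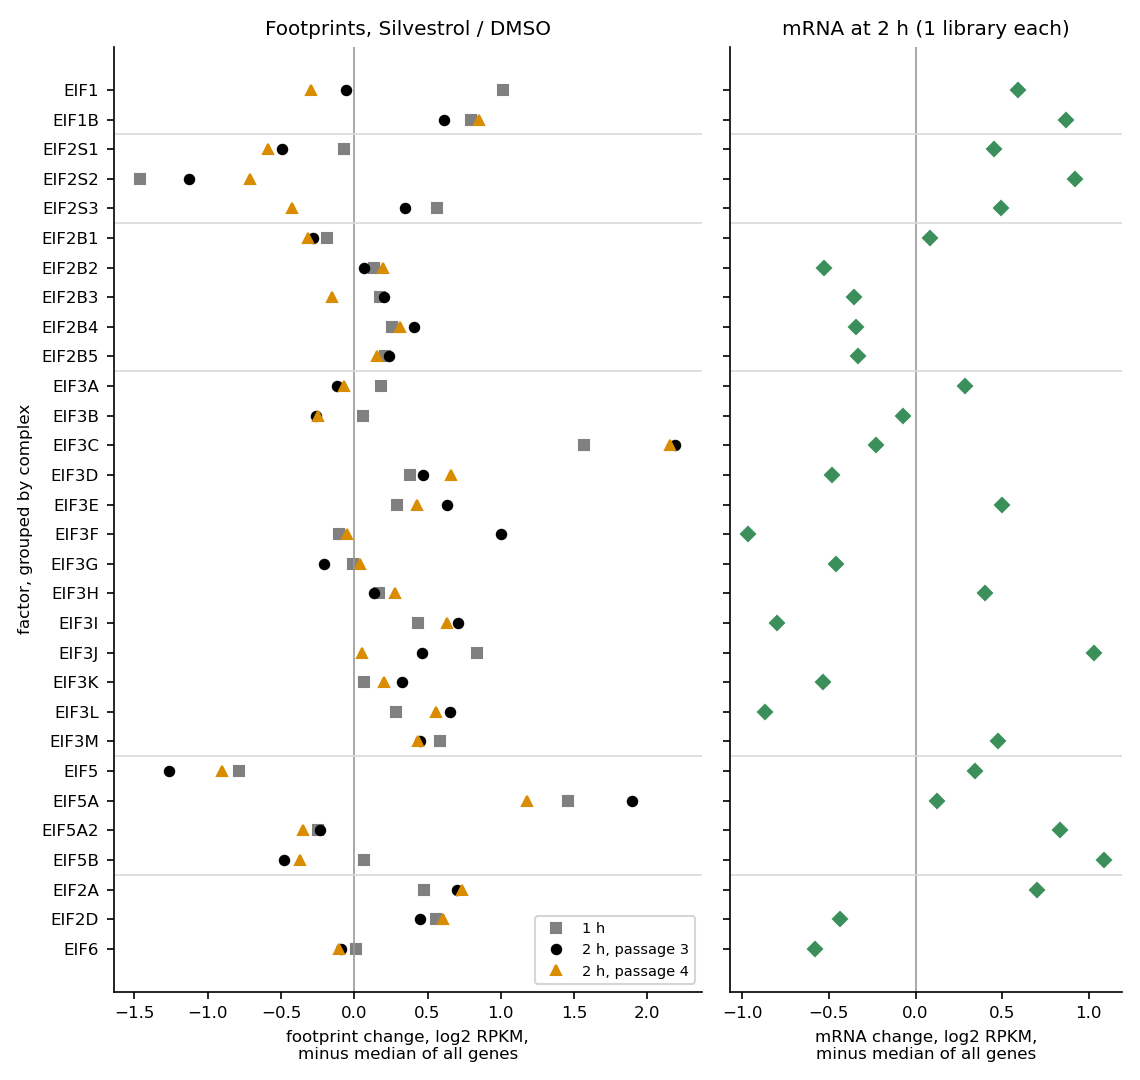
Left, log2 change of RF RPKM with Silvestrol for 30 members at 1 h (grey squares), 2 h passage 3 (black circles) and 2 h passage 4 (orange triangles), each minus the median of all genes. Right, the same for mRNA at 2 h, from 1 library per treatment. EIF5 is at -0.79, -1.26 and -0.90 in RFs and 0.34 in mRNA, whereas EIF3I is at 0.44, 0.71 and 0.63 in RFs and -0.80 in mRNA.

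The eIF1 group guards start codon selection. EIF1B, a close paralog of EIF1, had RFs of 174 RPKM and 143 RPKM in DMSO and 236 RPKM and 233 RPKM in Silvestrol, so the Silvestrol libraries lay above both DMSO libraries. Its fitted log2 change in RFs was 0.69 ± 0.17, with an adjusted p of 0.0624 in edgeR and 4.4e-07 with the passage block. EIF1 had RFs of 1539 RPKM and 1089 RPKM in DMSO and 1310.1 RPKM and 801 RPKM in Silvestrol, and the groups overlap. Its 1 h values were 1253 RPKM in DMSO and 2228 RPKM in Silvestrol, a log2 change of 0.83 against -0.23 and -0.44 at 2 h. The counted part of EIF1 is 9.73% of its coding length, with 142 reads in the passage 4 Silvestrol library. For EIF1AX only mRNA could be read, at 6.50 RPKM in DMSO and 14.6 RPKM in Silvestrol.

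Of the eIF2 subunits, EIF2S1 had RFs of 549 RPKM and 529 RPKM in DMSO and 346 RPKM and 317 RPKM in Silvestrol. These groups do not overlap, and the fitted log2 change in RFs was -0.58 ± 0.14, with an adjusted p of 0.0596 in edgeR and 9.8e-10 with the passage block. EIF2S3, the gamma subunit that binds the tRNA, had 65.3 RPKM and 64.3 RPKM in DMSO and 73.5 RPKM and 43.1 RPKM in Silvestrol, so the passages went opposite ways. EIF2S2, the beta subunit, had 12.8 RPKM and 26.9 RPKM in DMSO and 5.20 RPKM and 14.8 RPKM in Silvestrol, which overlap across passages, while within each passage Silvestrol was lower (log2 changes of -1.30 and -0.87). With 20 to 81 reads per library its fitted log2 change in RFs was -0.26 ± 0.93 and did not pass with the block (adjusted p = 0.351, edgeR). Its direction rests on single libraries, at 0.56 without the passage 4 DMSO library, 0.69 without the passage 3 Silvestrol library and -1.74 without the passage 4 Silvestrol library. With the block and counted length as an offset it was -0.94 ± 0.34 and passed (adjusted p = 0.0147, edgeR).

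The 5 subunits of eIF2B, the guanine nucleotide exchange factor of eIF2, had small values. Their fitted log2 changes in RFs ran from -0.33 ± 0.15 (EIF2B1) to 0.33 ± 0.21 (EIF2B4), and none passed the test without the block. EIF2B1, the regulatory alpha subunit, had RFs of 126 RPKM and 116 RPKM in DMSO and 91.9 RPKM and 84.2 RPKM in Silvestrol, and is the member of this complex that passed with the block in the lower direction (adjusted p = 0.00779). EIF2B4, the delta subunit, had RFs of 58.0 RPKM and 48.1 RPKM in DMSO and 68.0 RPKM and 53.9 RPKM in Silvestrol, which overlap between passages, and passed with the block in the higher direction (adjusted p = 0.00860). Its unblocked log2 value rests on single libraries, at 0.07 without the passage 3 and 0.52 without the passage 4 Silvestrol library, and at 0.52 without the passage 3 and 0.17 without the passage 4 DMSO library. EIF2B5, the catalytic epsilon subunit, had 67.7 RPKM and 68.0 RPKM in DMSO and 70.6 RPKM and 68.3 RPKM in Silvestrol, nearly the same in all 4 libraries.

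The 13 eIF3 subunits had a median fitted log2 change in RFs of 0.29, against -0.02 over all genes. In the 8 subunits of the PCI/MPN octamer, the structural core of the complex, the median was 0.35, and in the 5 others it was 0.29. EIF3L, an octamer subunit, had 167 RPKM and 112 RPKM in DMSO and 233 RPKM and 148 RPKM in Silvestrol, a fitted log2 change of 0.60 ± 0.14 (adjusted p = 0.0561, edgeR, and 8.2e-08 with the block). Its groups overlap across passages, while within each passage the Silvestrol library was above its DMSO partner. EIF3D, the subunit that can bind the mRNA cap, had RFs of 451 RPKM and 347 RPKM in DMSO and 552 RPKM and 494 RPKM in Silvestrol, with no overlap. EIF3M, another octamer subunit, had 549.8 RPKM and 563 RPKM in DMSO and 665 RPKM and 687 RPKM in Silvestrol, also with no overlap. In contrast, EIF3B, the scaffold of the mobile part of eIF3, had 340.3 RPKM and 309 RPKM in DMSO and 252 RPKM and 234 RPKM in Silvestrol, and EIF3A, the largest subunit, had 192 RPKM and 201 RPKM in DMSO and 157 RPKM and 172 RPKM in Silvestrol. EIF3E, an octamer subunit, had 260.2 RPKM and 295 RPKM in DMSO and 358 RPKM and 358 RPKM in Silvestrol, with no overlap. EIF3K, the smallest octamer subunit, had 499 RPKM and 359 RPKM in DMSO and 554 RPKM and 373 RPKM in Silvestrol, where the groups overlap and the gap between passages is wider than that between treatments. EIF3F, also of the octamer, had 25.7 RPKM and 31.2 RPKM in DMSO and 45.5 RPKM and 27.1 RPKM in Silvestrol, so the passages went opposite ways. EIF3C had 2.62 RPKM and 0.930 RPKM in DMSO and 10.6 RPKM and 3.74 RPKM in Silvestrol, with no overlap but on 5 to 25 reads per library. Its fitted log2 change in RFs was the largest of the members (1.99 ± 0.59, adjusted p = 0.0920, edgeR). The subunits of eIF3 did not share 1 sign: EIF3A, EIF3B and EIF3G had negative fitted values and the 10 others positive ones. EIF3G turned positive without the passage 3 DMSO or the passage 4 Silvestrol library, and EIF3F turned negative without the passage 3 DMSO library. Of the eIF3 subunits that passed with the block, the unblocked log2 value of EIF3E (0.51 with all libraries) was lower without the passage 3 DMSO library (0.31) or the passage 4 Silvestrol library (0.24). Without the passage 4 DMSO library EIF3D was at 0.31 and EIF3K at 0.16, without the passage 3 Silvestrol library EIF3K was at 0.15, and without the passage 3 DMSO library EIF3B was at -0.19 and EIF3K at 0.44.

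Fitted RF changes of EIF5B and EIF5A2 were below 0, and neither passed without the block. EIF5B, the GTPase of subunit joining, had RFs of 89.3 RPKM and 91.8 RPKM in DMSO and 56.7 RPKM and 64.0 RPKM in Silvestrol, with no overlap. Its fitted log2 change in RFs was -0.46 ± 0.12, with an adjusted p of 0.0728 in edgeR and 3.5e-06 with the block. EIF5A had 0.925 RPKM and 2.27 RPKM in DMSO and 3.05 RPKM and 4.63 RPKM in Silvestrol, on 2 to 5 reads per library at 2 h, too few to read a change from. EIF5A2, the less expressed paralog of EIF5A, had 41.2 RPKM and 41.3 RPKM in DMSO and 31.01 RPKM and 29.2 RPKM in Silvestrol, with no overlap but only 43 reads in the passage 4 Silvestrol library. Its fitted log2 change in RFs was -0.21 ± 0.23 (adjusted p = 0.567, edgeR), and was -0.32 without the passage 3 and -0.11 without the passage 4 DMSO library. EIF2D, which helps take apart ribosomes after termination and can deliver tRNA without eIF2, had 34.5 RPKM and 29.6 RPKM in DMSO and 41.7 RPKM and 40.6 RPKM in Silvestrol, and passed with the block (adjusted p = 0.000373). EIF6 had 1600.3 RPKM and 1323 RPKM in DMSO and 1330.1 RPKM and 1107 RPKM in Silvestrol, a fitted log2 change of -0.13 ± 0.18.

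The 1 h libraries address how early these differences appear. EIF5 RFs were 220.3 RPKM in DMSO and 112 RPKM in Silvestrol at 1 h, a log2 change of -0.97 against a median of -0.18 over all genes. EIF5B was at 90.2 RPKM and 83.3 RPKM and EIF2S1 at 548 RPKM and 459 RPKM, log2 changes of -0.11 and -0.26 that are near that median. Among the members on the higher side, EIF3J went from 30.4 RPKM to 47.9 RPKM and EIF3M from 528 RPKM to 696 RPKM. EIF2A (107 RPKM and 130.4 RPKM) and EIF3I (589.8 RPKM and 703 RPKM) had log2 changes of 0.29 and 0.25. The median over 30 members was 0.01, with 23 above the median of all genes and 7 below it. At 1 h and in both passages at 2 h, 16 members lay above the median gene of the same comparison each time and 5 lay below it each time. The matching share over all genes was not computed, so these counts are not read as a result about the members.

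The mRNA libraries give the RNA side of these values. With 1 library per treatment, EIF5B mRNA was 15.1 RPKM in DMSO and 33.1 RPKM in Silvestrol, a log2 change of 1.13. EIF3J was at 5.97 RPKM and 12.5 RPKM (1.07), EIF2S2 at 6.80 RPKM and 13.3 RPKM (0.96), EIF1B at 25.8 RPKM and 48.6 RPKM (0.91) and EIF5A2 at 3.35 RPKM and 6.16 RPKM (0.88). On the low side, EIF3F mRNA was 12.8 RPKM in DMSO and 6.72 RPKM in Silvestrol, a log2 change of -0.93, EIF3L was at 129 RPKM and 72.7 RPKM (-0.83) and EIF3I at 208 RPKM and 123 RPKM (-0.76). The median log2 change in mRNA over 30 members was 0.15, against 0.04 over all genes. The highest log2 change in mRNA was that of EIF1AX (1.17), which is outside the 30. By complex the medians were 0.77 for EIF1 and EIF1B (0.91 with EIF1AX), 0.54 for eIF2, 0.63 for the eIF5 group, -0.30 for eIF2B and -0.19 for eIF3. EIF5 mRNA itself was 27.4 RPKM in DMSO and 35.8 RPKM in Silvestrol, so its RFs were lower while its mRNA was higher. For EIF2A mRNA was 15.4 RPKM in DMSO and 25.8 RPKM in Silvestrol (0.74), so RFs and mRNA were both higher. Its fitted log2 change in TE was 0.06 ± 0.24 (adjusted p = 0.911, edgeR).

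TE divides RFs by mRNA and so carries the mRNA values with opposite sign. In the edgeR model over the 6 libraries at 2 h, no member passed for TE, and 2 of 10588 genes did (0.0189%). An unadjusted p under 0.05 was found for 10 of 30 members in edgeR, beside 24.3% of all genes. DESeq2 called EIF5B lower, beside 4.89% of all genes, and EIF3I and EIF3L higher, beside 3.42%. The lowest adjusted p belonged to EIF5B (log2 change in TE of -1.47 ± 0.24, adjusted p = 0.0757), followed by EIF3L (1.45 ± 0.25, adjusted p = 0.0801) and EIF3I (1.47 ± 0.27, adjusted p = 0.0822), all from edgeR. With the passage as a block 6 members passed in the lower direction, beside 21.8% of all genes, and 10 in the higher direction, beside 21.9%. The 6 were EIF1, EIF2S1, EIF2S2, EIF5, EIF5A2 and EIF5B, and the 10 were EIF2B2, EIF2B4, EIF2B5, EIF2D, EIF3D, EIF3F, EIF3I, EIF3K, EIF3L and EIF6. In that blocked fit no eIF3 or eIF2B subunit was among the lower ones, and no eIF1, eIF2 or eIF5 gene among the higher ones. By sign in the unblocked fit, 12 of 30 members had higher mRNA with lower TE and 13 lower mRNA with higher TE. In 5 members the signs were the same. The split by complex thus cannot be told apart from the values of the single mRNA libraries, and was not tested. Without the passage 4 DMSO library the unblocked fit called EIF5 and EIF5B lower, beside 5.95% of all genes, and EIF3I and EIF3L higher, beside 3.07%. Without the passage 3 DMSO library it called EIF5B lower, beside 7.62%, and EIF3I and EIF3L higher, beside 4.77%. The spread in this model comes from the RF libraries alone.

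As a z-score of the log2 change in TE over all genes at passage 3, the measure the study uses with limits of -1.5 and 1.5, EIF5 (-1.53) and EIF2S2 (-1.98) lay below the lower limit, beside 6.63% of all genes. Above the upper limit were EIF3C (2.56), EIF3F (2.11), EIF5A (1.90), EIF3L (1.65) and EIF3I (1.64), beside 4.82% of all genes. EIF5B at -1.49 was just inside. The genes used here differ from those of the study, which had smaller shares past these limits. A member past a limit here need not be in the study's lists. With passage 4 RFs, which share the same mRNA libraries, EIF5 was at -1.18, EIF2S2 at -1.59, EIF3C at 2.60, EIF3F at 1.07, EIF5A at 1.21, EIF3L at 1.59 and EIF3I at 1.61. The members that stayed beyond the limits with either passage and had over 100 RF reads at passage 3 were thus EIF3L and EIF3I. On read counts with TMM scaling EIF3L was at 1.49 and EIF5 at -1.22, and without a minimum RPKM EIF3I was at 1.47 and EIF5 at -1.40, inside the limits. The median z-score was 0.17 over 30 members and 0.03 over all genes.

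INK128 addresses the other arm of eIF4F control, and here the 8 octamer subunits of eIF3 all had lower RF levels than in DMSO. RF levels of EIF3L were 135 FPKM in DMSO and 64.9 FPKM in INK128, a log2 change of -1.06. EIF3F was at 261 FPKM and 138 FPKM (-0.92), EIF3H at 216 FPKM and 117 FPKM (-0.89), EIF3E at 327 FPKM and 215 FPKM (-0.61) and EIF3K at 195 FPKM and 144 FPKM (-0.44). EIF3A (73.9 FPKM and 57.1 FPKM), EIF3C (71.2 FPKM and 59.5 FPKM) and EIF3M (204 FPKM and 171 FPKM) completed the octamer at log2 changes from -0.37 to -0.26. All 8 octamer subunits lay below the median of 7102 genes (0.01), with a median log2 change in RFs of -0.52. So did 4 of the 5 other eIF3 subunits, whose median was -0.11. Of the 5 other subunits, EIF3G was at -0.50 and EIF3D at -0.28, EIF3I and EIF3B were at -0.11 and -0.04, and EIF3J was at 0.43 (139 FPKM and 188 FPKM). EIF3C has 2 near-identical entries in this table, and the first had 71.2 FPKM and the second 71.0 FPKM in DMSO.

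Outside eIF3, EIF2S3 (77.7 FPKM in DMSO and 49.9 FPKM in INK128, log2 -0.64) and EIF5 (36.5 FPKM and 23.8 FPKM, log2 -0.62) were the lowest in RFs. EIF2S1 (-0.09) and EIF2S2 (-0.06), the partners of EIF2S3, were close to the median gene. The 5 eIF2B subunits lay between -0.19 and 0.12. EIF5A was at 472 FPKM and 496 FPKM and EIF6 at 391 FPKM and 399 FPKM, log2 changes of 0.07 and 0.03. The median log2 change in RFs was -0.17 over the 30 members that passed the filter, with 23 below the median of all genes. EIF5A2, at 3.32 FPKM of RFs and 0.294 FPKM of total RNA in DMSO, was the member that did not pass. Depth is unknown in this experiment, since only FPKM values were used.

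**Figure D3:**
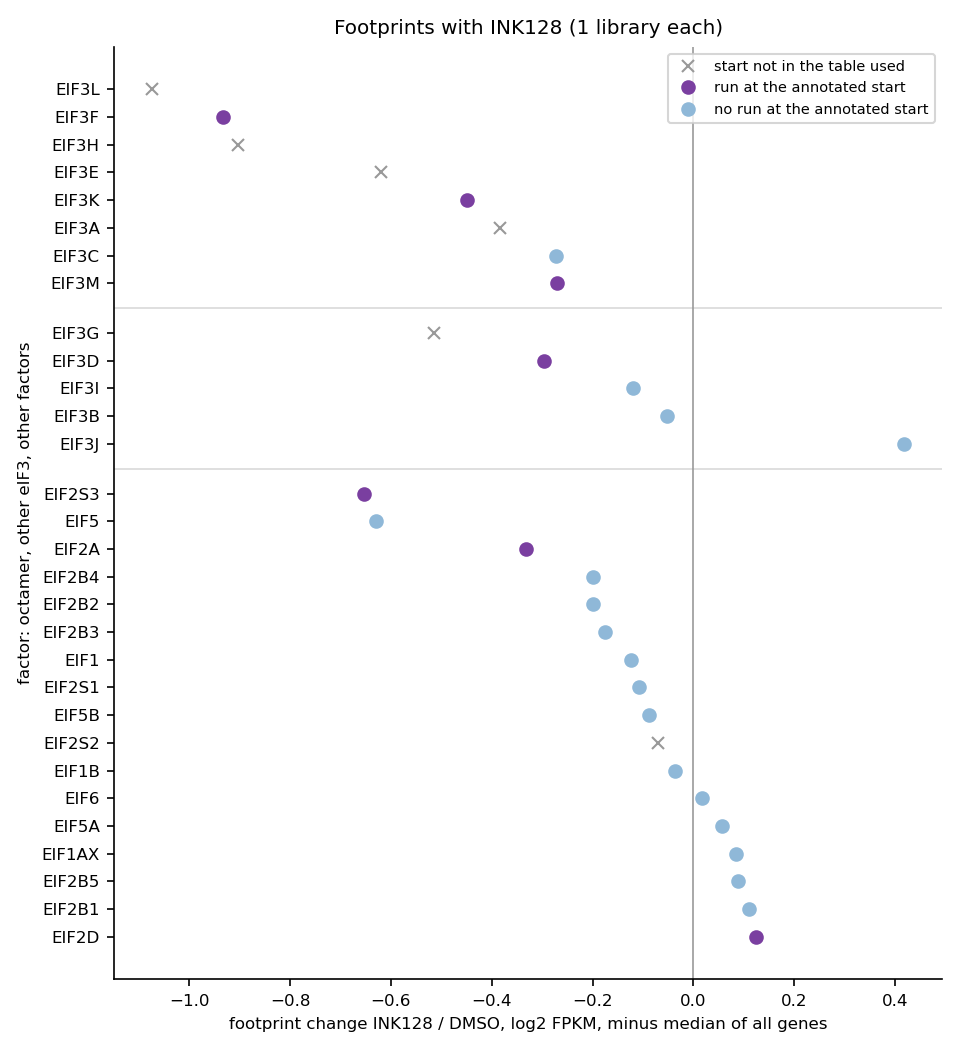
Log2 change of RF FPKM with INK128 for 30 members, minus the median of all genes, from 1 library per treatment. Members are grouped as the eIF3 octamer, other eIF3 subunits and other factors, and purple marks a pyrimidine run that covers the annotated start, blue no such run and grey crosses no start entry. All 8 octamer subunits lie left of 0, from -1.07 (EIF3L) to -0.27 (EIF3M), as do 4 of the 5 other eIF3 subunits, and EIF3J lies at 0.42.

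Total RNA in that experiment had a median log2 change of -1.17 over all genes and -1.25 over members, and the log2 change in TE a median of 1.18 over all genes, so only the standing of members among genes is described. Members' mean total RNA was under 5 FPKM in 26 of 31 genes. As z-scores of the log2 change in TE, EIF3L (-1.99) and EIF3H (-1.94) lay below -1.5, beside 5.58% of all genes, and no member lay above 1.5, beside 1.75%. EIF3F (-1.31) and EIF3E (-1.30) came next, then EIF2S3 (-0.99) and EIF2A (-0.90). EIF2B1 had the highest member z-score at 1.49, with RFs of 24.9 FPKM and 27.1 FPKM. All 8 octamer subunits were below the median z-score of all genes, with a median of -0.90, as were 2 of the 5 other eIF3 subunits, with a median of 0.23. A pseudocount of 0.5 FPKM left 4 of the 8 octamer subunits below the median z-score, with a median of -0.34, while all 8 remained below the median gene in RFs.

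The start windows can be set beside these values. The 7 members with a pyrimidine run at the annotated start (EIF2A, EIF2D, EIF2S3, EIF3D, EIF3F, EIF3K, EIF3M) were all below the median INK128 z-score of all genes, with a median of -0.51, and 6 of the 7 were below the median gene in RFs. EIF2D was the exception in RFs, at a log2 change of 0.14. Of the 17 members with a start entry and no such run, 7 were below the median z-score, with a median of 0.23, and 11 were below it in RFs. Over all genes used, 287 of 453 genes with a run at the start (63.4%) lay below the median z-score, against 2207 of 4744 genes without (46.5%). With a pseudocount of 0.5 FPKM 4 of the 7 members lay below. Of the octamer subunits at the bottom of the order, EIF3L, EIF3H and EIF3E are among the 6 members without a start entry, whereas EIF3F has a run. With Silvestrol, the same 7 members had a median fitted log2 change in RFs of 0.40, and the members without a run 0.01. That second set also has 17 members, with EIF5A2 and without EIF1AX, the reverse of the INK128 set. Its median is the value of EIF2B3, which ran from -0.27 to 0.21 when 1 library was left out.

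Values under the drugs are set side by side here for 5 members, of which EIF5 alone passed the Silvestrol test without the block. EIF3L was at 0.60 in fitted log2 RF change with Silvestrol and at -1.06 in log2 RF change with INK128, and EIF3E at 0.51 and -0.61. Their adjusted p with Silvestrol was 0.0561 and 0.212 in edgeR. EIF5 was low with either drug, at -0.87 and -0.62. EIF5B was at -0.46 with Silvestrol and at -0.07 with INK128, and EIF2S1 at -0.58 and -0.09, with an adjusted p with Silvestrol of 0.0728 and 0.0596 in edgeR. The experiments have separate DMSO controls, differ in unit, and the difference between drugs was not tested.

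The 5′ UTR is the part of an mRNA that the small subunit scans before the start codon, and the study asked whether its length and structure go with Silvestrol sensitivity. In GENCODE transcripts (GRCh37) the members have short 5′ UTRs, with a median of 85 nucleotides over 31 members against 134 over the 9141 genes used that had one. EIF5 has the longest of the members, with 441 nucleotides, 3 upstream ATG triplets and a predicted folding energy of -139.5 kcal/mol. EIF5B follows at 166 nucleotides among the members with a lower fitted value, and EIF1B at 235 nucleotides (0 upstream ATG) among those with a higher one. The 9 shortest, in order of length, are those of EIF2S3 (13 nucleotides), EIF3E (15), EIF2A and EIF3F (16 each), EIF2B4 (24), EIF3H (26), EIF2B5 (28), EIF3L (31) and EIF3I (35). Their fitted log2 changes in RFs run from 0.16 (EIF3H and EIF2B5) to 0.67 (EIF2A), and that of EIF3G, next at 40 nucleotides, is -0.14. Across the 27 members with at least 100 RF reads, 5′ UTR length and the fitted log2 change in RFs had Pearson's r of -0.57 and Spearman's rho of -0.49, and r was -0.36 without EIF5 and -0.65 without EIF5 and EIF1B. Folding energy and the same change had r of 0.66 and rho of 0.51, and GC content had r of -0.12. These are descriptions across genes that share the same libraries, and genes are not replicates.

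**Figure D4:**
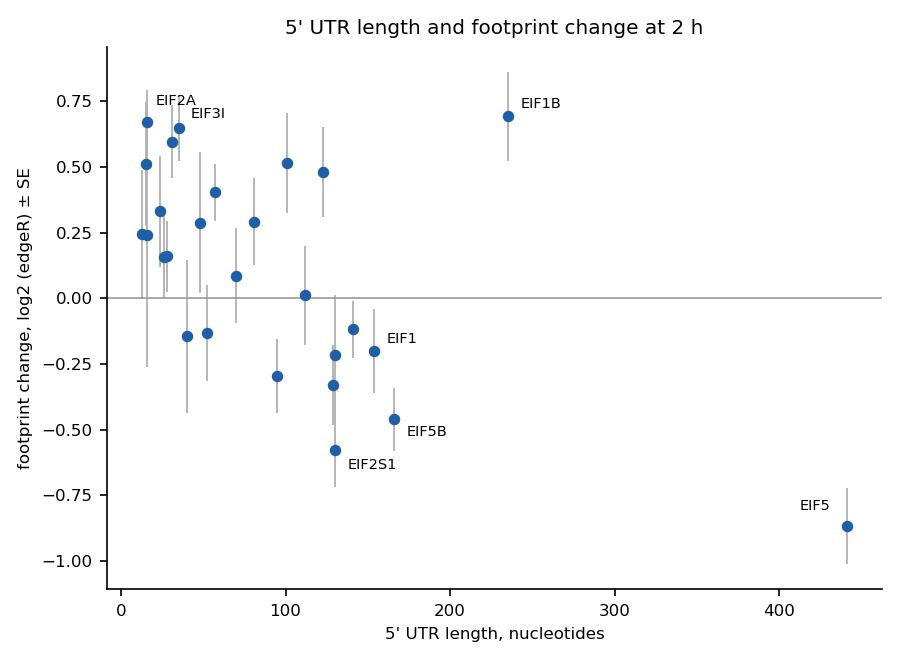
5′ UTR length in nucleotides against the fitted log2 change in RFs with Silvestrol at 2 h for the 27 members with at least 100 RF reads, with SE bars from edgeR (n = 2 against 2). EIF5 sits at the lower right (441 nucleotides, -0.87), EIF2A and EIF3I at the upper left, and EIF1B at the upper right of the others (235 nucleotides, 0.69).

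Other genes of the pathway were counted as lists chosen with the members. None of the 9 genes of eIF4F and its cofactors (eIF4E, eIF4A, eIF4G, eIF4B, eIF4H and the poly(A)-binding protein) passed the RF test, and 2 passed lower and 3 higher with the block, beside 28.0% and 24.6% of all genes. Of 13 regulators of initiation, 1 was lower and 1 higher, beside 7.58% and 2.13% of all genes, and 5 and 4 with the block. The lower one was ABCE1, the ATPase that splits ribosomes after termination, with RFs of 46.3 RPKM and 34.5 RPKM in DMSO and 13.0 RPKM and 10.0 RPKM in Silvestrol. Its fitted log2 change in RFs was -1.06 ± 0.19 (adjusted p = 0.0362, edgeR). The higher one was BZW2, a protein that resembles the eIF2-binding end of EIF5, with RFs of 108 RPKM and 102 RPKM in DMSO and 151 RPKM and 151 RPKM in Silvestrol, a fitted log2 change of 0.65 ± 0.14 (adjusted p = 0.0455, edgeR).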

How the data were processed

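RFs and RNA of MDA-MB-231 cells were read from the 2 deposited tables. For Silvestrol the authors aligned reads with Bowtie to hg19 and KnownGene canonical transcripts and deposited counts of unique reads per transcript and RPKM values, from which positions with reads that are not unique, or under several transcripts, were excluded. For INK128 the authors deposited FPKM values, the program being not given in the sources used here. Both tables also hold the authors' TE, log2 change and z-score columns, which were not used.

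Of 38897 lines, 25758 were distinct. For symbols with several entries (546) the one with the highest mean RF RPKM was kept. EIF2D is listed under its older symbol LGTN and was matched by transcript. Genes were used with RPKM above 0 in the passage 3 libraries at 2 h, RF RPKM averaging 1 or more, and mRNA RPKM averaging 0.3 or more (the same limits on FPKM for INK128, above 0 in all 4 libraries).

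The RF test used edgeR 4.0.16 (R 4.3.3; glmQLFit and glmQLFTest after TMM scaling), and the TE test the assay-by-treatment interaction of 1 edgeR model. Benjamini-Hochberg adjustment ran over all genes, with a threshold of 0.05. Counts of 10588 genes were simulated, of which 200 had a log2 change of 2 in either direction. For RFs 200 were recovered with 10 unchanged genes called, and 184 for TE with 2. The simulation had a fixed spread, no passage effect and larger changes than those of the members called. It therefore does not give the power for changes of their size. Replicates 1 and 2 are passages 3 and 4, shared by DMSO and Silvestrol in the labels. Deviations from the group means correlated between the treatments with r = 0.72 over all genes and 0.80 over members, so the passages pair the samples, and blocked values are given where they change a call. With 2 cultures per group, p-values measure the spread between these cultures only, and edgeR draws the spread of each gene toward one shared over genes. The blocked RF fit has few libraries for its terms, and its p-values rest mostly on that shared spread. They are no measure of how well the change of a single gene repeats. DESeq2 1.42.0, other filters, scalings and pseudocounts, and leaving out each library were alternatives, with pseudocounts of 0.5 and 0.1. Changes in FPKM and RPKM used no pseudocount otherwise. Start windows are from RefSeq, 5′ UTRs from GENCODE 44, and folding energies from RNAfold 2.7.2. Python 3.11.15, numpy 2.4.6 and pandas 2.3.3 were used.

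All 31 members are described by complex, with the 2 h RF values of each library for those called in RFs or past a Silvestrol z limit. Others are given by range or in part. Of the partner genes at most 3 called in each direction were named. Members, lists and rules were chosen with earlier results of these data known.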

Additional observations from a re-analysis of the deposited data

How the results depend on the processing

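In the Silvestrol fits the counts of members moved most with the passage block, and less with single libraries and with DESeq2. The INK128 counts moved with the scaling of the z-score. Over the 4 fits that each left out 1 library, 0 to 1 members were lower (0.0% to 8.72% of all genes) and 0 higher (0.0% to 2.43%) in RFs, and 0 to 2 were lower (0.0% to 7.62%) and 0 to 2 higher (0.0% to 4.77%) in TE. With the passage block RFs gave 5 lower and 11 higher and TE 6 lower and 10 higher, with the shares of all genes given above. With the block and an offset for counted length, chosen after seeing the data, RFs gave 6 and 11 (27.7% and 23.9% of all genes) and TE 6 and 11 (21.6% and 21.1%). DESeq2 gave 4 higher in RFs, and 1 lower and 2 higher in TE. The offset alone gave 1 higher in RFs (2.41%), EIF3I being the call lost, and a minimum RPKM of 5 gave 2 lower (10.5%). The Silvestrol z-score put 1 member below -1.5 with passage 4 RFs or with no minimum RPKM, and 3 above 1.5 under each of these, a minimum of 5 and TMM counts, where 6.29% to 6.72% of all genes lay below and 4.57% to 4.89% above. Its member median was 0.12 with passage 4 RFs and 0.044 with the minimum of 5. The 1 h median was 0.19 with TMM counts and -0.0039 with that minimum. For INK128, a minimum FPKM of 5, which left 5 members, put 0 below -1.5 (4.86% of all genes). Scaling by the median and MAD put 6 members below and 1 above, and also raised the shares of all genes to 12.3% and 6.86%. The median INK128 z-score turned to 0.23 and 0.022 with pseudocounts of 0.5 and 0.1 and to 0.49 with the minimum of 5, and was -0.39 with the MAD. The median log2 change in total RNA was -1.02 with a pseudocount of 0.5.

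Some members changed sign when 1 library was left out. In RFs the fitted log2 values ran from -0.080 to 0.28 for EIF2B2, -0.27 to 0.21 for EIF2B3, -1.74 to 0.69 for EIF2S2, -0.025 to 0.55 for EIF2S3, -0.32 to 1.00 for EIF3F, -0.46 to 0.26 for EIF3G and -0.34 to 0.044 for EIF6. In TE they ran from -0.24 to 0.055 for EIF1B, -0.56 to 0.0043 for EIF2S3, -0.019 to 0.42 for EIF3E and -0.0069 to 0.059 for EIF3M. A minimum RPKM of 5 put EIF2B3 at -0.011 in RFs, EIF2A at -0.021 and EIF3M at -0.052 in TE, and the offset with the block put EIF2S3 at -0.00058 in RFs. The cause of these differences was not tested. EIF3C, EIF2S2, EIF5A and EIF1AX rest on few counted RF reads, which limits their precision.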
